A study of Mus musculus with 27 samples.

Results

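The 10 genes described here code for neuronal tubulins and microtubule proteins. They are the alpha-tubulins Tuba1a and Tuba1b, the beta-tubulins Tubb2a, Tubb2b, Tubb3 and Tubb5, the microtubule-associated proteins Map2 and Map1b, and the stathmins Stmn1 and Stmn2. They were picked out by gene symbol, from a list drawn up with earlier results of these data known, and all 10 were found among the 55416 genes of the read-count table. Every member passed the filter on low counts in every comparison.

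The libraries came from whole brains of fetuses labelled female, 3 per strain and gestational day, 27 in all. The strains were AKR/J and C57BL/6J, both inbred, and B6.Cg-Cav1tm1Mls/J, a congenic line on the C57BL/6J background that lacks caveolin-1 (Cav1-null). AKR/J and Cav1-null are the short-lived strains of the study and C57BL/6J the long-lived strain. Brains were taken on gestational day (d) 12, d15 or d17, with the plug as day 1, from mice mated at about 8 weeks of age, with no treatment named in the labels. The step from d12 to d15 is called the early phase and the step from d15 to d17 the late phase. The labels do not tie fetuses to dams, so the p-values below measure the spread between these libraries, which may include littermates.

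Microtubules are hollow polymers of alpha- and beta-tubulin that carry transport and give shape to axons and dendrites. Growing neurons express a set of tubulin isotypes that differ mainly at their acidic carboxyl tails, where most of the modifying enzymes act. Map2 stabilises dendritic microtubules, Map1b binds microtubules in growing axons, and stathmins bind free tubulin dimers and favour disassembly.

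Beta-tubulin genes differ in how alike their coding ends are, from nearly identical to clearly distinct, which is why these ends are shown. The last 60 coding bases of the 4 beta-tubulins, stop codon included, are printed 5′ to 3′ on the coding strand from the GRCm39 genome with GENCODE M39 gene models. Capitals mark bases that differ from the paired gene in a gapped alignment of the whole coding sequences, so the lines do not match base for base where a gap was placed.
Tubb2a: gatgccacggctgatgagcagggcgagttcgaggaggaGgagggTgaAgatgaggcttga
Tubb2b: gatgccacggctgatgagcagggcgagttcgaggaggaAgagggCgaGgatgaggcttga
Tubb3: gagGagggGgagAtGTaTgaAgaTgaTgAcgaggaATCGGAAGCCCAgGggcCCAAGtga
Tubb5: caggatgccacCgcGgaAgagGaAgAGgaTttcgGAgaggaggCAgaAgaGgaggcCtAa
Tubb2a and Tubb2b differ at 3 of these bases and are 96.49% identical over the whole coding sequence. Tuba1a and Tuba1b are 98.3% identical over theirs. Tubb3, shown against Tubb2b, differs at 28, and Tubb5, also shown against Tubb2b, at 16. These exonic stretches lie on the minus strand at chr13:34258451-34258510 for Tubb2a, chr13:34311454-34311513 for Tubb2b and chr17:36145874-36145933 for Tubb5. That of Tubb3 lies on the plus strand at chr8:124148362-124148421.

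The consequence for counting was measured as the share of a transcript's 150-base windows, the length of the study's reads, that also occur in another gene's transcripts. This share was 0% for Tubb3, Map2 and Stmn2, 1.482% for Map1b, 7.228% for Tubb2b and 9.213% for Stmn1. It reached 29.73% for Tuba1b and 60.46% for Tuba1a, which share them with each other, with Tuba1c and with predicted genes. For Tubb5 (36.28%) the windows lie in Flot1, which overlaps it on the opposite strand, and for Tubb2a (78.41%) all lie in the opposite-strand gene Bphl, and 18.74% of its windows also occur in Tubb2b. How the authors treated reads with several matches, and strand, is not stated, so the levels of Tuba1a, Tuba1b, Tubb2a and Tubb5 are uncertain in that respect.

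Libraries held 26363697 to 39759702 reads on genes. Cav1 was at 0 to 0.509 CPM (reads per gene scaled by TMM to a common library size) in the 9 Cav1-null libraries and at 9.24 to 39.9 in the other 18. Every one of the 10 neuron markers was detected in every group. The AKR/J d12 libraries stood apart. Their 9 measured erythroid markers summed to 33008 to 197510 CPM against at most 5325 in the other d12 libraries, and their 10 neuron markers to 803 to 999 CPM against 1244 to 2117 in C57BL/6J d12. The 8 placenta markers summed to 746, 76.5 and 34.4 CPM in AKR/J d12 and to 0.663, 0.599 and 70.97 CPM in C57BL/6J d12, so that C57BL/6J d12 replicate 3 lay among the AKR/J libraries, and to at most 6.01 CPM in the others. Among C57BL/6J d17 libraries, mitochondrially encoded genes took 1.53%, 4.43% and 2.47% of reads in replicates 1, 2 and 3. Their share was 9.60%, 3.98% and 6.66% in the AKR/J d12 libraries and 1.15% to 1.79% in those of C57BL/6J d12. The part of these differences in the results below was not tested. In bulk tissue, fewer cells of a type and less RNA per cell cannot be told apart.

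The members made up 0.403% to 1.76% of all gene reads, lowest in an AKR/J d12 library and highest in a C57BL/6J d17 library. Levels of different genes were compared as CPM per kilobase of the canonical transcript, with the median over 27 libraries. Tuba1a (813, range 278.5 to 1527) and Tubb5 (678, 379 to 1172) had the highest medians. Stmn1 (478) and Stmn2 (393.5) followed, then Tubb2b (280), Tubb3 (257.5), Tubb2a (174), Map2 (128), Map1b (81.9) and Tuba1b (43.3). Each gene overlapped its neighbours in this order over the libraries, and the order differed between groups. By group means of CPM per kilobase, Tubb5 was above Tuba1a in AKR/J on every day (457.9, 737.9 and 636 against 397, 593 and 549) and below it in every group of the other strains. Stmn2 (625) was also above Tuba1a in AKR/J d17. Tuba1b was the lowest member in 8 of the 9 groups, while in AKR/J d12 it was at 77.5, above Map1b (61.7) and Map2 (59.0).

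**Figure D1:**
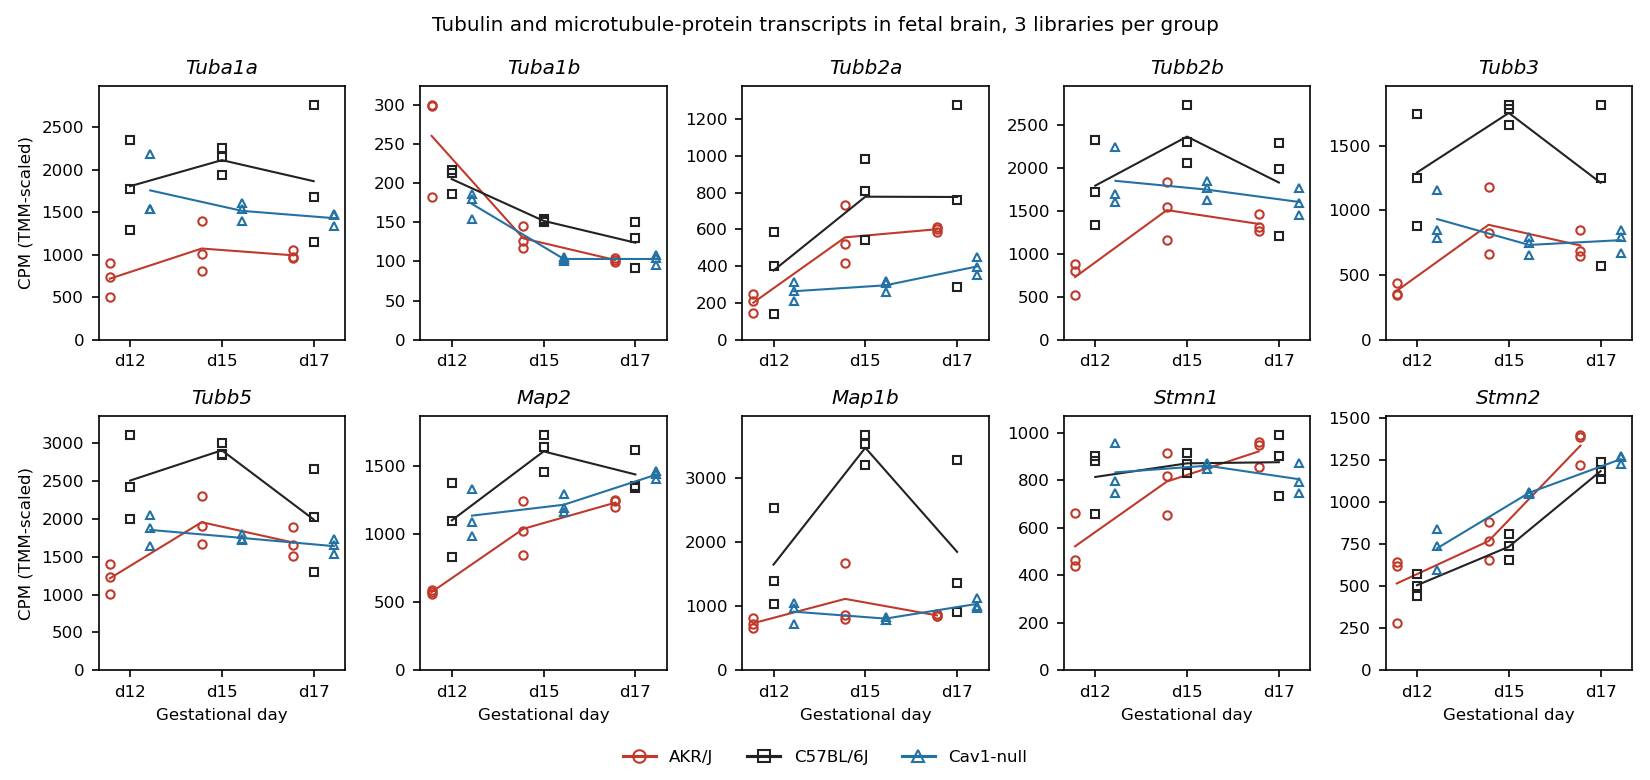
Each panel plots 1 gene, with gestational day on the x axis and TMM-scaled CPM on a linear y axis from 0; points are single libraries (3 per strain and day) and lines join the group means. Stmn2 is higher on each later day in every strain, Tuba1b is lower on d15 than on d12 in every strain, the AKR/J libraries of d12 are low for most tubulins, and Map1b on d15 is at 3213 to 3674 CPM in C57BL/6J against at most 1668 in the other strains.

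The comparison of days within a strain asks which members changed over each phase. In the early phase of AKR/J, Tubb2a, Tubb2b, Tubb3 and Map2 rose and Tuba1b fell. These are 4 members higher and 1 lower, where 14.8% and 14% of all 19935 genes tested were called higher and lower by edgeR at an adjusted p under 0.05. In the early phase of C57BL/6J and of Cav1-null, Stmn2 rose and Tuba1b fell, 1 member each way in both strains. The background was 7.08% higher and 7.8% lower in C57BL/6J, and 11.6% higher and 11.8% lower in Cav1-null. In the late phase Stmn2 rose in all 3 strains. It was the only member called higher in AKR/J (background 11.6%) and in C57BL/6J (7.46%), and 1 of 4 in Cav1-null (14.5%), the others being Tubb2a, Map2 and Map1b. Tuba1b fell further in AKR/J, the 1 member called lower there (background 10.4%). The median log2 fold change of the 10 members in the early phase of AKR/J was 0.60, beside 0.02 over all genes. In the early phase it was 0.38 in C57BL/6J and -0.08 in Cav1-null, beside -0.04 and -0.01 over all genes. In the late phase it was -0.12, -0.17 and 0.04 in the 3 strains, AKR/J first, beside -0.01, 0.03 and 0 over all genes.

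Markers of neural progenitors fell over the same phases. Of the 10 listed, 5, 5 and 7 were called lower by edgeR in the early phase of the 3 strains, AKR/J first and Cav1-null last, and 8, 6 and 7 in the late phase, with at most 1 higher. Their summed level went from 2924 to 4869 CPM on d12 to 1768 to 2195 on d15 and 1579 to 1951 on d17 in AKR/J. It went from 2573 to 3314 to 2090.0 to 2249 and 1439.7 to 1628 CPM in C57BL/6J, and from 2021 to 2883 to 1631 to 1733 and 1275 to 1636 CPM in Cav1-null. Of 10 neuron markers, 5, 2 and 4 were called higher early and 2, 2 and 5 late, with 2 lower in late Cav1-null and none lower in the other phases. Of 9 erythroid markers, 0, 0 and 4 were called higher and 8, 3 and 3 lower early, and 5, 6 and 0 higher and 3, 3 and 6 lower late. In AKR/J between d12 and d15, 6 of 7 yolk sac and 4 of 5 tested placenta markers were also called lower. Over all genes, at most 14.8% were called in either direction taken alone in any phase. Their part in the members' changes was not tested.

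Scaling by library size alone, without TMM, moved the early phase of AKR/J. The median of all genes then shifted to 0.46, the split of calls changed from 2958 higher and 2800 lower to 3588 and 1214, and 8 members were called, all higher. For the late phase of C57BL/6J the median shifted to 0.17 and the split from 1484 higher and 1110 lower to 2099 and 968, with Stmn2 still the 1 member called.

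Tuba1a, the main alpha-tubulin of migrating and growing neurons, did not pass the test in any phase. Its levels in AKR/J were 742, 504 and 908 CPM on d12, 1008, 812 and 1397 on d15, and 1049, 968 and 960.0 on d17. The d12 and d15 groups overlapped. In C57BL/6J it lay between 1293 and 2344 CPM on d12, between 1935 and 2249 on d15, and between 1149.5 and 2762 on d17. The Cav1-null libraries stayed between 1339.6 and 2187 CPM over all days. The edgeR log2 fold change of the early phase was 0.53 (SE 0.31) for AKR/J, 0.19 (SE 0.20) for C57BL/6J and -0.21 (SE 0.15) for Cav1-null.

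Tuba1b, an alpha-tubulin made in most dividing cells, fell in the early phase of every strain. In AKR/J it was at 299.8, 183 and 298 CPM on d12, 117, 126 and 145 on d15, and 102, 99.1 and 104 on d17, with no overlap between d12 and d15. In C57BL/6J it went from 186, 212 and 217 CPM on d12 to 155, 151 and 149.7 on d15. In Cav1-null it went from 179, 187 and 154 CPM on d12 to 106, 104 and 100.2 on d15. All d15 libraries thus lay below all d12 libraries of their strain. The early-phase log2 fold change was -1.05 (SE 0.23, edgeR adjusted p = 0.0118) in AKR/J, -0.48 (SE 0.10, edgeR adjusted p = 0.0286) in C57BL/6J and -0.75 (SE 0.09, edgeR adjusted p = 0.000787) in Cav1-null. In the late phase it fell by a further 0.33 (SE 0.09, edgeR adjusted p = 0.0321) on the log2 scale in AKR/J. The early AKR/J call was lost without AKR/J d15 replicate 1 (log2 fold change -0.98, edgeR adjusted p = 0.0673) and with scaling by library size (-0.54, adjusted p = 0.0732). The C57BL/6J call was lost without d12 replicate 1 or any single d15 library (edgeR adjusted p = 0.060 to 0.145), and the late AKR/J call without d15 replicate 3 or any 1 of the d17 libraries (0.0526 to 0.145). Both were also lost in 1 model of all 27 libraries and with the replicate number as a block, where no member was called lower in these phases.

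The ratio of Tuba1a to Tuba1b reads within a library, which needs no scaling between libraries, moved with day. It was 2.48, 2.75 and 3.05 in AKR/J on d12, 8.63, 6.44 and 9.62 on d15, and 10.3, 9.76 and 9.20 on d17. In C57BL/6J the ratio was 8.86 ± 2.61 (SD, n = 3) on d12, 13.9 ± 1.25 on d15 and 14.6 ± 3.27 on d17. In Cav1-null it was 10.1 ± 1.58, 14.7 ± 0.68 and 13.9 ± 1.33 on the same days. The d12 libraries were the lowest of their strain in every case, and the AKR/J d12 libraries the lowest of all 27.

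Tubb2a codes for a beta-tubulin of neurons that is nearly identical to Tubb2b. In AKR/J it was at 212, 143 and 251 CPM on d12, 520.5, 418 and 733 on d15, and 602, 587 and 616 on d17, the d12 libraries all being lower than the rest. The early-phase log2 fold change was 1.42 (SE 0.29, edgeR adjusted p = 0.00958), and this call held without any 1 library. In Cav1-null it rose in the late phase, from 322, 307 and 259.8 CPM on d15 to 351, 451 and 396 on d17, with a log2 fold change of 0.44 (SE 0.10, edgeR adjusted p = 0.00637), which also held without any 1 library. In C57BL/6J the libraries of a day spread widely, from 140.2 to 586 CPM on d12 and from 289.7 to 1279 on d17, and no phase passed the test.

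Tubb2b rose in AKR/J between d12 and d15, from 797, 517 and 877 CPM to 1541, 1157 and 1835, a log2 fold change of 1.00 (SE 0.30, edgeR adjusted p = 0.0379). The 2 groups did not overlap. The call was lost without d12 replicate 1 or 3 or d15 replicate 1 or 3 (edgeR adjusted p = 0.0673 to 0.142). In the other strains it lay between 1212 and 2737 CPM on all days, with no phase passing the test except the early phase of C57BL/6J without d12 replicate 2 (0.56, edgeR adjusted p = 0.0496). Reads of Tubb2b per read of Tubb2a fell with day in AKR/J, from 3.50 to 3.75 on d12 to 2.50 to 2.96 on d15 and 2.07 to 2.44 on d17. In Cav1-null the ratio was 6.00 to 8.02 on d12, 5.75 to 6.25 on d15 and 3.92 to 4.15 on d17. In C57BL/6J it overlapped between days, at 3.97 to 9.52, 2.34 to 5.04 and 1.79 to 4.18.

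**Figure D2:**
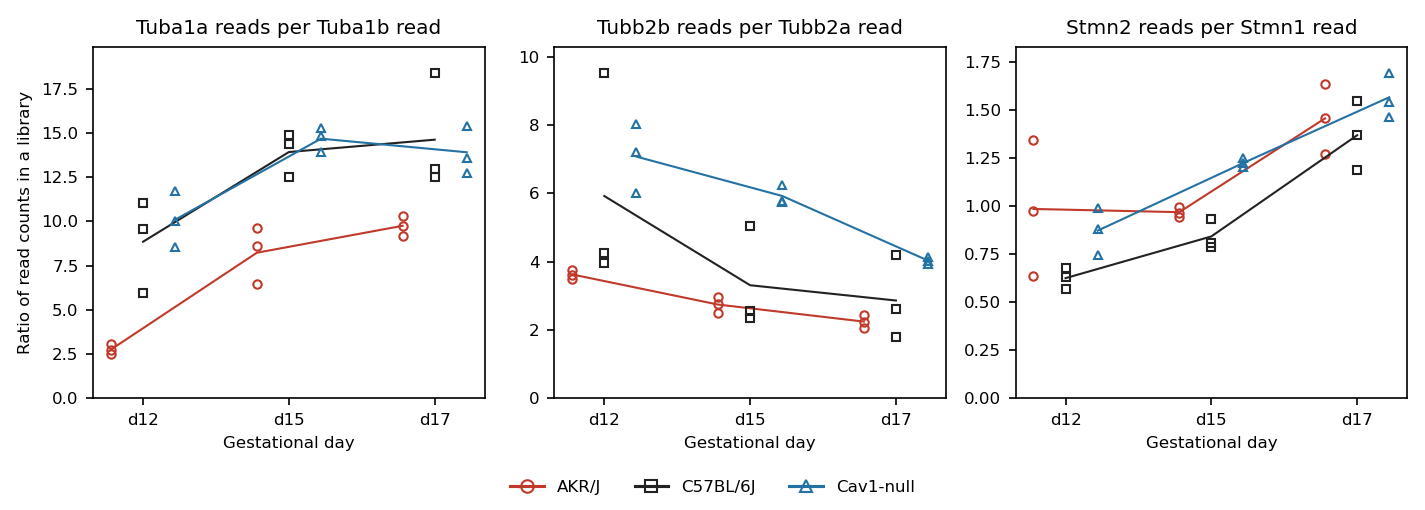
Ratios of read counts within a library (linear y axes from 0) for Tuba1a to Tuba1b, Tubb2b to Tubb2a and Stmn2 to Stmn1, against gestational day; points are libraries and lines join means of 3. The first ratio starts at 2.48 to 3.05 in AKR/J on d12 and ends at 9.20 to 10.3 on d17, and the last ends at 1.19 to 1.69 in all strains.

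Tubb3, the beta-tubulin used as a marker of neurons, rose in AKR/J between d12 and d15. It was at 351, 343 and 440.4 CPM on d12, 825, 659.5 and 1180.2 on d15, and 848, 687 and 650.1 on d17. The d12 libraries were below all others of the strain, and the log2 fold change was 1.19 (SE 0.27, edgeR adjusted p = 0.0142). The call was lost without d12 replicate 1, d15 replicate 1 or d15 replicate 3 (edgeR adjusted p = 0.051 to 0.0625). In C57BL/6J, Tubb3 was at 1254, 1746 and 879 CPM on d12, 1663, 1812 and 1784 on d15, and 1816, 572 and 1252 on d17. Replicate 2 of d17 was thus the lowest C57BL/6J library. Cav1-null libraries lay between 654 and 1159.8 CPM. No phase passed the test in these strains, but the early rise in C57BL/6J did without d12 replicate 2 (0.64, edgeR adjusted p = 0.0318), and a fall in Cav1-null did without d12 replicate 3 (-0.45, 0.00807) and by DESeq2 (-0.35, adjusted p = 0.0439).

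Tubb5, the beta-tubulin of dividing progenitors and many other cells, was at 1006 to 1403 CPM in AKR/J on d12, 1666 to 2299 on d15 and 1511 to 1896 on d17. In C57BL/6J it was at 1997 to 3109, 2849.9 to 3011 and 1296 to 2659 CPM on the 3 days, and in Cav1-null at 1532 to 2053 CPM overall. None of its phase changes passed the test. The largest early one was 0.64 (SE 0.27, edgeR adjusted p = 0.109) in AKR/J, which DESeq2 called (log2 fold change 0.59, adjusted p = 0.0259), and edgeR without d12 replicate 2 (0.50, adjusted p = 0.037). In the late phase of C57BL/6J it was at -0.48 (SE 0.28), and at -0.75 (edgeR adjusted p = 0.0364) without d17 replicate 1.

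Map2 rose in AKR/J between d12 and d15, from 557, 569 and 590.5 CPM to 1019, 846 and 1244, without overlap, by a log2 fold change of 0.81 (SE 0.23, edgeR adjusted p = 0.0321). On d17 it was at 1198, 1239 and 1247 CPM. In Cav1-null it rose in the late phase from 1159, 1189 and 1290.3 CPM to 1459, 1439.9 and 1398, a log2 fold change of 0.24 (SE 0.08, edgeR adjusted p = 0.0293). These groups did not overlap either. Both calls depended on single libraries. The AKR/J call was lost without d12 replicate 1 or 3 or d15 replicate 1 or 3 (edgeR adjusted p = 0.0941 to 0.138), and the Cav1-null call without d15 replicate 1 or 2 or d17 replicate 3 (0.0597 to 0.135). In C57BL/6J, Map2 was at 829 to 1370 CPM on d12, 1450.2 to 1724 on d15 and 1335 to 1618 on d17. Its early-phase value there, 0.50 (SE 0.18, edgeR adjusted p = 0.0902), passed by DESeq2 (0.54, adjusted p = 0.0298) and without d12 replicate 2 (0.66, edgeR adjusted p = 0.0227). Without AKR/J d15 replicate 3, Map2 and Tubb2a also passed there between d15 and d17 (0.40 and 0.37, edgeR adjusted p = 0.0335 and 0.0489).

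Map1b varied widely within C57BL/6J. It was at 1389, 2532 and 1026 CPM on d12, 3213, 3674 and 3541 on d15, and 3279, 904 and 1362 on d17. The d15 libraries were above all d12 libraries, and d17 replicate 1 was level with d15. The early-phase log2 fold change was 1.04 (SE 0.29, edgeR adjusted p = 0.0534), which passed by DESeq2 (1.07, adjusted p = 0.00258) and without d12 replicate 2 (1.45, edgeR adjusted p = 0.00652). The late-phase value was -0.84 (SE 0.45, edgeR adjusted p = 0.228), and without d17 replicate 1 it was -1.56 (edgeR adjusted p = 0.00358). In AKR/J, Map1b lay between 655 and 1668 CPM, and no phase passed the test. In Cav1-null it was at 788, 790.0 and 836 CPM on d15 and 1009, 1125 and 975 on d17, a rise of 0.37 (SE 0.08, edgeR adjusted p = 0.00379) with no overlap, and held without any 1 library. Its early-phase value in Cav1-null, -0.18, became -0.32 (edgeR adjusted p = 0.0118) without d12 replicate 3.

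The splice-junction table gave a separate count for Map1b, from the 1 junction of the gene with reads in every library. On d15 it held 1206, 1124 and 989 reads in the C57BL/6J libraries, 216, 217 and 356 in AKR/J and 188, 171 and 212 in Cav1-null. On d17 the C57BL/6J libraries held 715, 194 and 290 reads, in the same order as their gene counts. The mitochondrial share of reads differed between the same d15 groups. That share was 1.21% to 1.31% in C57BL/6J d15, 2.26% to 2.69% in AKR/J d15 and 3.18% to 3.71% in Cav1-null d15. Its part in the result was not tested.

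Not every call on gene counts passed on junction reads, which could be fitted for few members. Each fit used the junctions with reads in all of its own libraries. For Stmn2, 1 of 4 junctions had reads in all 27 libraries, and it held only 1 to 21 reads in each. In the late phase of Cav1-null, Map1b (0.37, edgeR adjusted p = 0.0666), Map2 (0.21, 0.12) and Stmn2 (0.70, 0.225) did not pass, nor did Stmn2 in the early phase of C57BL/6J (0.27, 0.202) or Map2 between Cav1-null and C57BL/6J on d15 (-0.16, 0.136). Map1b passed on junction reads in the early phase of C57BL/6J (1.03, edgeR adjusted p = 0.0181), as did Map1b and Map2 between AKR/J and C57BL/6J on d12 (-1.32 and -1.09, edgeR adjusted p = 0.00917 and 0.0121).

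**Figure D3:**
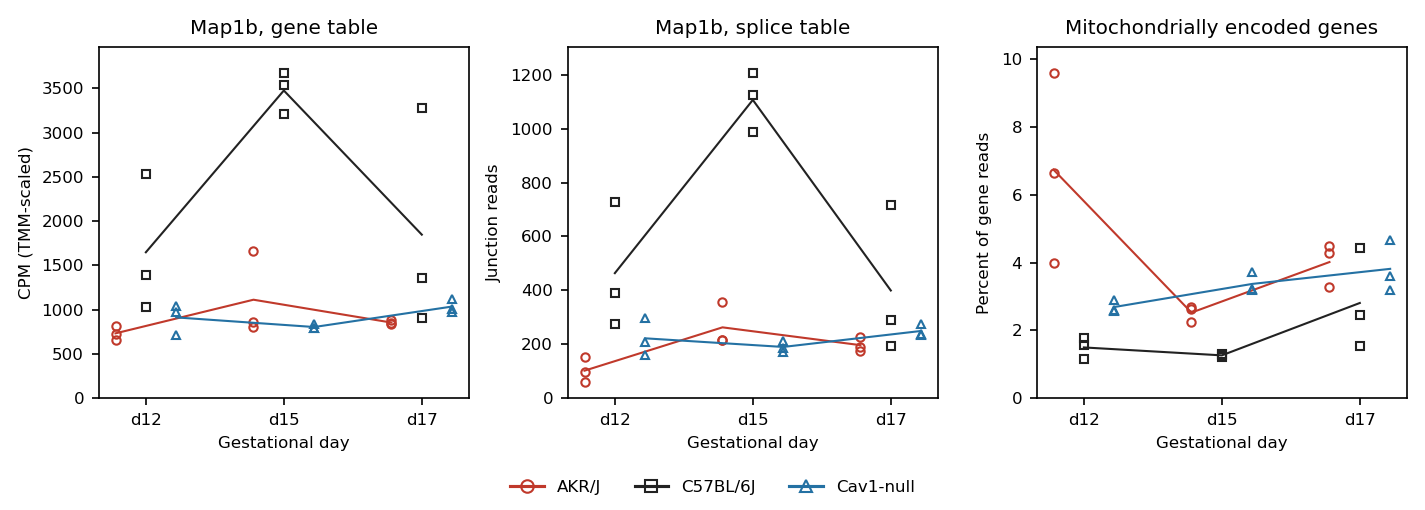
Map1b in the gene table (TMM-scaled CPM), Map1b junction reads in the splice table, and the percent of gene reads on mitochondrially encoded genes, each against gestational day on linear y axes from 0; points are libraries and lines join means of 3. C57BL/6J d15 stands at 3213 to 3674 CPM and 989 to 1206 junction reads, with a mitochondrial share of 1.21% to 1.31%, and C57BL/6J d17 is spread from 904 to 3279 CPM.

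Stmn2, also known as SCG10, is a neuron-specific stathmin of growth cones. It was at 622, 282 and 643 CPM in AKR/J on d12, 768, 653 and 883 on d15, and 1224, 1387 and 1399 on d17. In C57BL/6J it was at 499.9, 572 and 444 CPM on d12, 653, 741 and 809 on d15, and 1177, 1138 and 1238 on d17. In Cav1-null it was at 596, 842 and 738 CPM on d12, 1062, 1047 and 1056 on d15, and 1266, 1226 and 1276 on d17. The groups did not overlap at any step, so that every library of a later day was above every library of the earlier day of its strain.

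The early-phase log2 fold change of Stmn2 was 0.49 (SE 0.13, edgeR adjusted p = 0.0456) in C57BL/6J and 0.54 (SE 0.13, edgeR adjusted p = 0.0166) in Cav1-null. In AKR/J it was 0.53 (SE 0.33, edgeR adjusted p = 0.265), where d12 replicate 2 was the lowest library. The late-phase value was 0.82 (SE 0.12, edgeR adjusted p = 0.00317) in AKR/J, 0.75 (SE 0.16, edgeR adjusted p = 0.027) in C57BL/6J and 0.26 (SE 0.07, edgeR adjusted p = 0.0166) in Cav1-null. The AKR/J late call held without any 1 library. The C57BL/6J calls were lost without d12 replicate 1 or any 1 d15 library in the early phase (edgeR adjusted p = 0.0985 to 0.187) and without any 1 d15 library or d17 replicate 3 in the late phase (0.0873 to 0.141). Those of Cav1-null were lost without any 1 d15 library in the early phase (0.0647 to 0.0699) and without d15 replicate 2 or d17 replicate 3 in the late phase (0.0593 to 0.0892). With the replicate number as a block both C57BL/6J calls were lost, and in 1 model of all 27 libraries both Cav1-null calls were.

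Stmn1, the stathmin of progenitors and young neurons, had the narrowest fold range of the 10 members outside AKR/J d12. It lay between 655 and 991 CPM in all libraries outside AKR/J d12, where it was at 463, 441 and 662, and no phase passed the test. Reads of Stmn2 per read of Stmn1 were 0.62 ± 0.06 (SD, n = 3) on d12, 0.84 ± 0.08 on d15 and 1.37 ± 0.18 on d17 in C57BL/6J. In Cav1-null the ratios were 0.87 ± 0.12, 1.22 ± 0.02 and 1.57 ± 0.12. In AKR/J they were 0.98 ± 0.35, 0.97 ± 0.03 and 1.46 ± 0.18, so that d12 and d15 overlapped there.

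**Figure D4:**
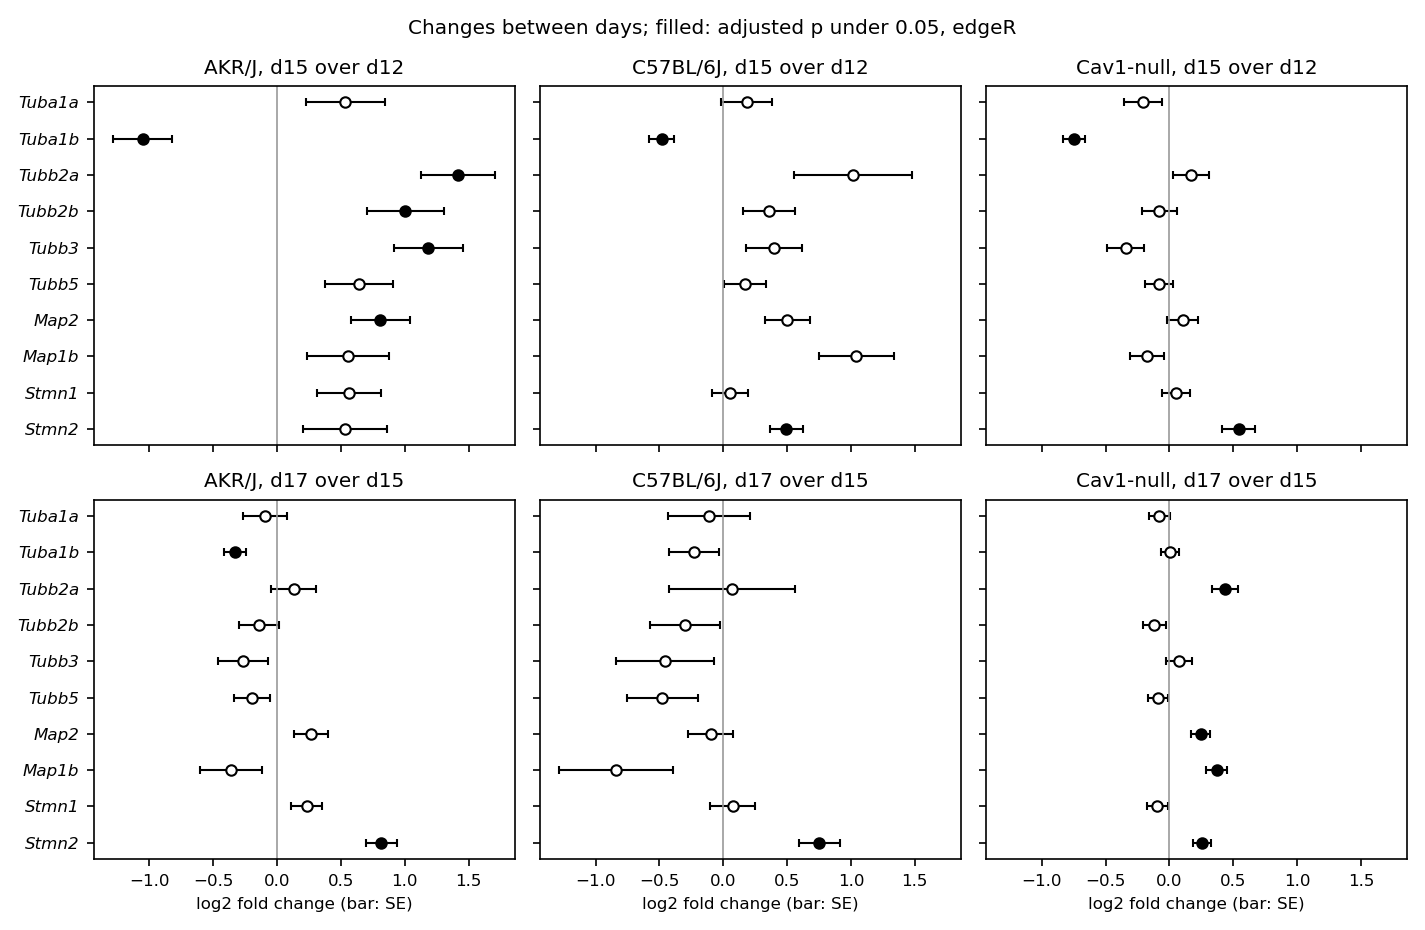
Log2 fold change of each member in the early (top) and late (bottom) phase of each strain, with bars of 1 standard error from 3 libraries a group; filled points passed an adjusted p under 0.05 by edgeR. Tuba1b is filled on the negative side in all 3 early panels (-1.05, -0.48 and -0.75) and Stmn2 on the positive side in all 3 late panels (0.82, 0.75 and 0.26).

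The comparison of each short-lived strain with C57BL/6J on the same day asks whether the members differ between strains. Both comparisons of a day use the same 3 C57BL/6J libraries. On d12, Tubb3, Tuba1a and Tubb2b were lower in AKR/J, 3 of 10 members where 14.1% of all genes tested were called lower. The log2 differences were -1.63 (SE 0.31, edgeR adjusted p = 0.012) for Tubb3, -1.18 (SE 0.34, edgeR adjusted p = 0.0345) for Tuba1a and -1.15 (SE 0.33, edgeR adjusted p = 0.0341) for Tubb2b. Map2, Map1b and Tubb5 missed the threshold (edgeR adjusted p = 0.0553 to 0.0653), and all 3 passed by DESeq2. No library of AKR/J reached the lowest of C57BL/6J for 6 members, a separation seen in 30.8% of all genes. The Tubb3 call was lost without AKR/J d12 replicate 1 (-1.58, edgeR adjusted p = 0.0505) or C57BL/6J d12 replicate 2 (-1.40, 0.0622). Those of Tuba1a and Tubb2b were lost without AKR/J d12 replicate 1 or 3 or C57BL/6J d12 replicate 1 or 2 (edgeR adjusted p = 0.0691 to 0.128). With the replicate number as a block, which the main fit did not use, Map1b was also called (-0.93, edgeR adjusted p = 0.0473). That fit called 6566 of 19320 genes. Calls were gained without AKR/J d12 replicate 2 for Tuba1b, higher in AKR/J (0.68, edgeR adjusted p = 0.0121), Map2 and Tubb5, and without C57BL/6J d12 replicate 3 for Tubb2a (-1.17, 0.0294), Map1b and Map2. With library sizes alone the median of all genes was -0.38, the split of calls went from 2797 higher and 2732 lower to 1362 and 3153, and 7 members were lower. These are the libraries in which the erythroid markers and the mitochondrial share were high, and the part of that in these differences was not tested.

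On d15, 6 members were lower in AKR/J than in C57BL/6J, where 22.3% of all genes tested were called lower. Map1b differed most, by -1.58 (SE 0.26, edgeR adjusted p = 0.00269). Tubb3 and Tuba1a both differed by -0.92 (SE 0.19 and 0.18, edgeR adjusted p = 0.00636 and 0.0056), Tubb2b by -0.58, Map2 by -0.57 and Tubb5 by -0.51. The first 3 calls held without any 1 library. Those of Tubb2b, Map2 and Tubb5 were lost without AKR/J d15 replicate 1 or C57BL/6J d15 replicate 2 or 3 (edgeR adjusted p = 0.0538 to 0.152). Tuba1b, Tubb2a, Stmn1 and Stmn2 did not pass the test, though Tuba1b did without AKR/J d15 replicate 3 (-0.27, edgeR adjusted p = 0.0151). With library sizes alone the median of all genes moved from 0.06 to 0.23, the split of calls from 3696 higher and 4393 lower to 5542 and 3281, and Tubb2b was lost (-0.42). On junction reads Stmn2 was called higher in AKR/J (0.49, edgeR adjusted p = 0.00597). Of 9 erythroid markers 7 were higher and 1 lower in AKR/J (sums of 2005 to 3063 against 819.7 to 1063 CPM), and of 10 neuron markers 3 were lower and 0 higher. Their part in the result was not tested.

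Cav1-null against C57BL/6J on d15 gave the most calls. Here 8 members were lower and Stmn2 was higher, in a comparison where 31.8% and 26.8% of all genes tested were called lower and higher. Map1b was lower by a log2 difference of -2.07 (SE 0.06, edgeR adjusted p = 1.21e-08). The neuronal beta-tubulins Tubb2a and Tubb3 differed by -1.35 (SE 0.18, edgeR adjusted p = 9.41e-05) and -1.22 (SE 0.08, edgeR adjusted p = 3.57e-07). Tubb5 (-0.69), Tuba1b (-0.52), Tuba1a (-0.44), Tubb2b (-0.39) and Map2 (-0.36) were lower by less, and Stmn2 was higher by 0.57 (SE 0.07, edgeR adjusted p = 6.12e-05). Stmn1 did not pass (0.03, SE 0.05). All 9 calls held without any 1 library. In 1 model of all 27 libraries 6 members were called, 1 higher and 5 lower, among 8185 of 23307 genes. Markers of other cells also differed in this comparison. Of 10 progenitor markers 9 were lower in Cav1-null and 1 higher (sums of 1631 to 1733 against 2090.0 to 2249 CPM), and of 9 erythroid markers 6 were higher and 2 lower (2906 to 3612 against 819.7 to 1063 CPM). Of 10 neuron markers 3 were higher and 4 lower. Their part in the result was not tested. With library sizes alone, the median of all genes moved from 0.03 to 0.22, the calls from 5310 higher and 6311 lower to 7192 and 4952, and Tubb2b was no longer called (-0.21) while Stmn1 was (0.21).

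On d12 and d17, no member was called between Cav1-null and C57BL/6J by edgeR, where 0% and 0.0491% of all genes were. On d12, 4309 of 19475 genes had an unadjusted p under 0.05 by edgeR and DESeq2 called 2044. On d17 there were 1538 of 20358 at that level, and DESeq2 called 48. Of the members, 2 had an unadjusted p under 0.05 on d12, Map1b and Stmn2, and 0 on d17. DESeq2 called Stmn2 on d12 (0.57, adjusted p = 0.024) and no member on d17. Tubb2a passed on d12 without C57BL/6J d12 replicate 3 (-0.87, edgeR adjusted p = 0.0486). Between AKR/J and C57BL/6J on d17 edgeR also called no member (background 0.742%). Tuba1a and Map1b had an unadjusted p under 0.05 by edgeR, among 4275 of 20207 genes at that level. DESeq2 called Tuba1a (-0.91, adjusted p = 0.0468), among 1330 genes.

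The d17 calls turned on C57BL/6J replicate 2. Without it, 6 members were lower in AKR/J: Map1b (-1.43, edgeR adjusted p = 0.0102), Tuba1a (-1.16, 0.00661), Tubb3 (-1.07, 0.00706), Tubb2a (-0.76, 0.0213), Tubb2b (-0.66, 0.0104) and Tuba1b (-0.46, 0.0248). Also without it, 4 members were lower in Cav1-null, namely Tubb2a (-1.36, edgeR adjusted p = 0.0243), Map1b (-1.17, 0.0363), Tubb3 (-1.01, 0.0243) and Tuba1b (-0.45, 0.0474). The calls over all genes rose with them, from 150 to 5478 in AKR/J and from 10 to 2865 in Cav1-null. That library had the lowest Tubb3, Map1b, Tubb2a and Tuba1a of the 3 and the largest mitochondrial share of the 3, 4.43%. This share was 3.20% to 4.67% in the AKR/J and Cav1-null d17 libraries and 1.53% in C57BL/6J d17 replicate 1. Without replicate 1 no member was called, and 265 and 16 genes were. The median of the members was then -0.14 in AKR/J and -0.02 in Cav1-null. With all libraries these medians were -0.34 and -0.27, and without replicate 2 they were -0.57 and -0.49.

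**Figure D5:**
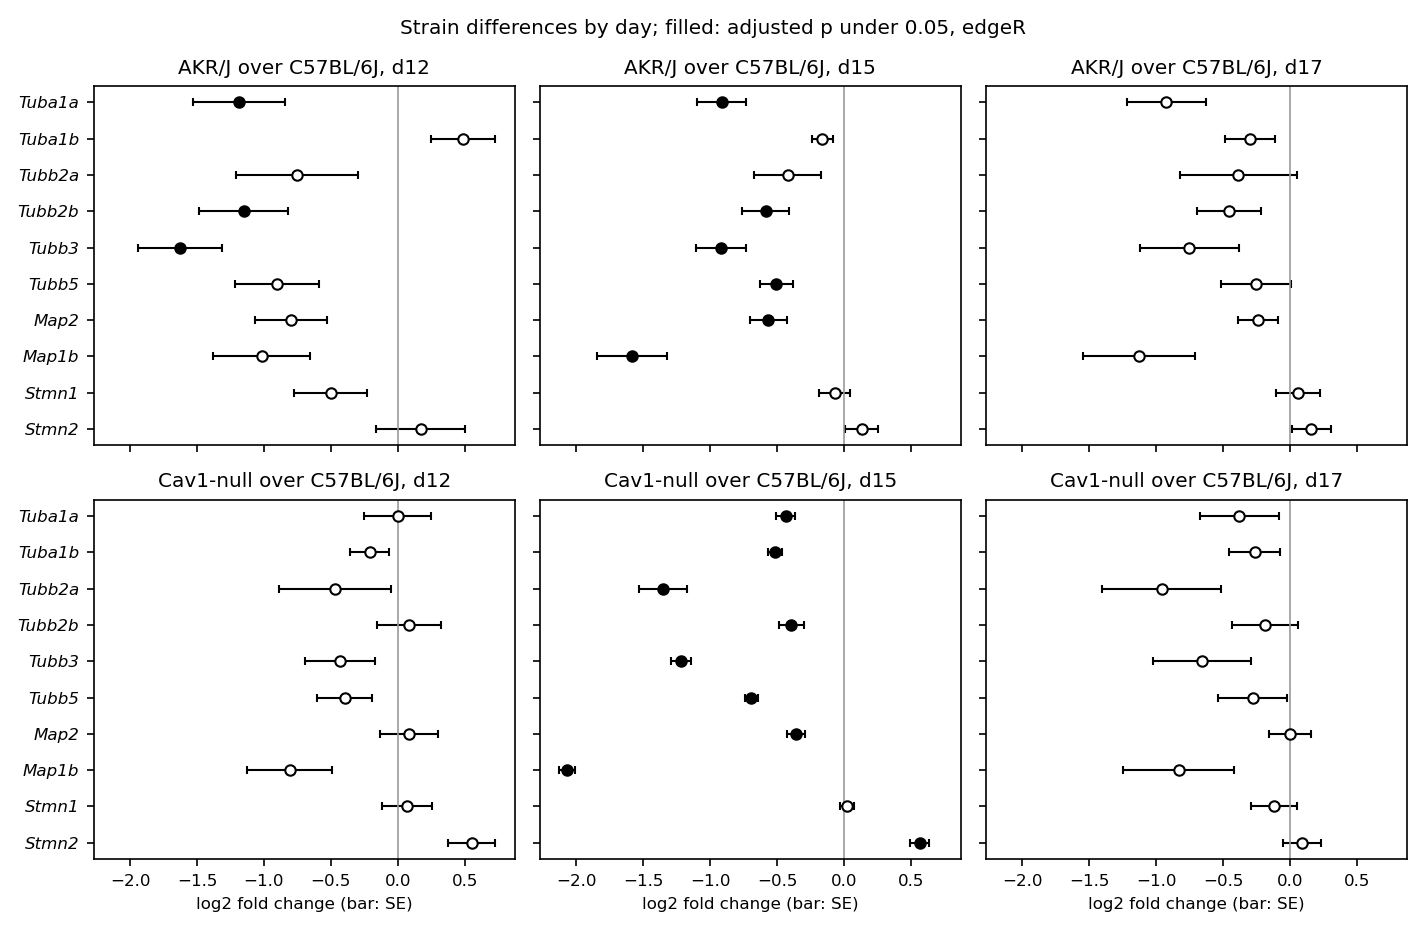
Log2 difference of each member between AKR/J (top) or Cav1-null (bottom) and C57BL/6J on d12, d15 and d17, with bars of 1 standard error from 3 libraries a group; filled points passed an adjusted p under 0.05 by edgeR. On d15 the filled points run from -1.58 to -0.51 in AKR/J and from -2.07 to 0.57 in Cav1-null, and on d17 no point is filled.

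Whether a strain changed differently from C57BL/6J over a phase was tested as an interaction. No member passed by edgeR in the main fit of any of the 4 interactions. Of all genes, 0.0711% and 0.00468% were called for the early and late phase of AKR/J, and 0.00472% and 0.252% for those of Cav1-null. At an unadjusted p under 0.05 in these main fits there were 1, 0, 2 and 2 of the 10 members. Over all genes there were 3432 of 21090, 1617 of 21373, 3181 of 21191 and 4683 of 21431. Map1b had the largest values in Cav1-null, -1.26 (SE 0.35, edgeR adjusted p = 0.213) in the early and 1.19 (SE 0.47, edgeR adjusted p = 0.173) in the late phase. Tuba1b in the early phase of AKR/J was at -0.63 (SE 0.25, edgeR adjusted p = 0.242), and Stmn2 in the late phase of Cav1-null at -0.53 (SE 0.14, edgeR adjusted p = 0.086). DESeq2 called Map1b early (-1.25, adjusted p = 0.0262) and Stmn2 late (-0.47, adjusted p = 0.0167) in Cav1-null, and no member in AKR/J. Over all genes it called 517 and 1436 in the early and late Cav1-null interactions, and 1019 and 45 in those of AKR/J. Single libraries decided several of these values. Tuba1b passed without AKR/J d12 replicate 2 (-0.84, edgeR adjusted p = 0.00496), Map1b and Tubb3 passed in the early phase of Cav1-null without C57BL/6J d12 replicate 2 (0.00455 and 0.034), and 5 members passed in its late phase without C57BL/6J d17 replicate 1, 4 higher and 1 lower, Map1b with 1.98 (6.18e-05). In these 3 fits, 3251 of 21955, 1618 of 22161 and 5792 of 22227 genes were called.

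The other microtubule genes give the setting of these changes. Of 89 other genes in 7 lists of tubulins, associated proteins, stathmins, folding cofactors, modifying enzymes, severing or minus-end proteins and plus-end proteins, 84 were tested in AKR/J between d12 and d15. Of these, 33 rose and 8 fell, with a median log2 fold change of 0.47, beside 0.02 over all genes, of which 14.8% rose and 14% fell. In the early phase of C57BL/6J 13 rose and 7 fell of 85 (median 0.23, beside -0.04 over all genes, of which 7.08% rose and 7.8% fell). In that of Cav1-null 21 rose and 15 fell of 85 (0.03, beside -0.01 over all genes, of which 11.6% rose and 11.8% fell). In the late phase 15, 5 and 20 rose and 12, 10 and 11 fell in the same order of strains, with medians of 0.02, -0.22 and 0.08. Over all genes 2324 of 19989, 1484 of 19888 and 2937 of 20245 rose there and 2085, 1110 and 2593 fell. On d15, 40 of 84 were lower and 8 higher in AKR/J than in C57BL/6J. Of all genes there 22.3% were lower and 3696 of 19692 were higher, and the medians were -0.32 for the lists and 0.06 for all genes. In Cav1-null 53 of 84 were lower and 14 higher, where 31.8% and 26.8% of all genes were, with medians of -0.33 and 0.03.

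Map9, which binds microtubules of the spindle and cilium, rose in both phases of every strain. Its early-phase log2 fold change was 1.99 for AKR/J, 0.96 for C57BL/6J and 1.00 for Cav1-null, and its late-phase values were 0.94, 0.86 and 0.59. Nav3, a plus-end protein of neurons, rose early in every strain (1.74, 1.19 and 0.72), as did Agtpbp1, which trims glutamates from tubulin tails (1.21, 0.54 and 0.57). Ttll7, which adds glutamates to beta-tubulin, rose late in every strain (0.40, 0.54 and 0.38). In the opposite direction, the spindle protein Tpx2 fell late by 1.35, 1.77 and 1.13 on the log2 scale, and Fignl1, of the fidgetin family, fell in both phases of every strain, by 1.31, 1.31 and 1.33 early and by 1.26, 1.12 and 1.16 late. All these values passed an adjusted p under 0.05 by edgeR.

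Of the tubulins outside the 10, Tuba1c, the third close copy of Tuba1a, was called lower in both phases of AKR/J (-1.07 and -0.70) and of Cav1-null (-1.20 and -1.48), and not in C57BL/6J (-0.10 and -1.56, edgeR adjusted p = 0.686 and 0.0516). Tubb4a, a beta-tubulin of neurons and glia, rose early in AKR/J (1.33, edgeR adjusted p = 0.0175) and in no other phase. Tubb6 fell late in AKR/J (-1.67) and early in Cav1-null (-1.43). Dcx, doublecortin of migrating neurons, rose early in AKR/J (2.02) and C57BL/6J (0.69). Mapt, which codes for tau, rose early in AKR/J (2.94) and in both phases of Cav1-null (0.64 and 0.54), and was at 1.43 (edgeR adjusted p = 0.0568) in the early phase of C57BL/6J. Stmn4 rose in both phases of AKR/J (1.58 and 0.80), late in C57BL/6J (0.68) and early in Cav1-null (0.92), and Stmn3 late in AKR/J (0.60).

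The genes whose levels over the 27 libraries were most like a member were found by Pearson r of log2(CPM + 1) among 10893 genes with a mean of at least 10 CPM. The libraries share strains, days and the depth and composition differences above, so these values describe only likeness. Between members, Tubb3 and Tubb5 were the most alike (r = 0.97), followed by Tuba1a and Tubb2b (0.94), and Tuba1b and Stmn2 were the most opposed (-0.73). Nearest to Tubb3 were Rrp1 (0.982), Tubb4a (0.981) and Ina (0.98), which codes for the neuronal intermediate filament protein internexin. Nearest to Map2 were Ppm1e (0.978), Dclk1 (0.975), a doublecortin-like kinase, and Stk32b (0.966). Map1b was nearest to Clstn1 (0.981), Clip3 (0.979) and Marchf6 (0.978), Stmn2 to Ralyl (0.982), Snrpn (0.97) and Stx7 (0.967), and Tuba1b to Eif5a (0.969), Pip4p2 (0.958) and Pim1 (0.952). Tubb5 was nearest to Atxn10 (0.979), Ubl7 and Vps53 (both 0.97), Tubb2b to Prkar1a (0.96), Basp1 (0.952) and Papss1 (0.944), and Tuba1a to Tubb2b (0.937), Papss1 (0.924) and Fam8a1 (0.921). The nearest genes of Stmn1, 6330403K07Rik (0.918), Scg3 (0.913) and Pak1 (0.911), and of Tubb2a, Mb21d2, Arhgef26 (both 0.899) and Acot1 (0.887), were less close.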

How the data were processed

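RNA was measured by poly-A selected RNA-seq in 27 fetal brain libraries, 3 per strain and day. Per the labels, the authors used FastQC, cutadapt, fastp, STAR with GRCm39, edgeR and bedtools; versions, the counting tool, strand setting and treatment of multi-mapped reads are not given in the sources used here. The deposited gene table holds raw read counts. The deposited splice table holds read counts per junction from which the authors removed multi-mapped junctions, overhangs under 20 bases and junctions under 10 reads in all samples, so a 0 there may be a removed value.

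Counts were tested with edgeR 4.0.16 (R 4.3.3): filterByExpr, TMM factors, the quasi-likelihood test on the 6 libraries of a comparison (12 for an interaction), and Benjamini-Hochberg adjustment over all genes tested, at 0.05. SEs were derived from the fold change and the F statistic. The fitting steps were also run on simulated counts with planted changes, which checks the steps and not the calls reported here. DESeq2 1.42.0 and other settings were alternatives. The rule for pairing was that the deviations of all 3 same-numbered pairs correlated above 0.1. This held for AKR/J and C57BL/6J on d12 (r = 0.18, 0.44 and 0.36) and in no other comparison. On d17 the same strains had 2 such pairs (0.57, 0.40 and -0.01). So had Cav1-null and C57BL/6J on d12 (0.22, -0.15 and 0.19) and the late phase of C57BL/6J (0.15, 0.1 and 0, rounded). This is a hint from the data, and the labels give no shared litter. The main fits used no pairing, and a replicate block was fitted as an alternative. Replicates differed by more than sampling noise (chi-square per degree of freedom 6.63 to 609).

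All 10 members are named. Of each other list, the gene with the largest and smallest mean change among those called alike in all 3 strains is named, with Tubb4a, Tubb6, Tuba1c, Dcx, Mapt, Stmn3 and Stmn4 always. The members and lists were chosen with earlier results of these data known. Summed yolk sac markers lay between 52.5 and 1999.6 CPM (highest in AKR/J d12 replicate 1) and skeletal muscle markers between 5.37 and 87.5 over all libraries. Loci and coding sequence came from GENCODE M39. The coding ends of Tuba1a and Tuba1b are not reported here.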

Additional observations from a re-analysis of the deposited data

Results flagged for a closer look

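The splice table, which the comparisons of gene counts do not use, held 5 junctions that join the neighbouring Tuba1b and Tuba1a loci. They had 751 reads over the 27 libraries, 10 to 57 per library with a median of 25, above the limit of 3 reads that a count of 0 allows in all 27. With 3 libraries a group no test for a single outlying library was made. No member passed an interaction test in the main edgeR fits, while DESeq2 called 1 in each phase of Cav1-null. Without the filter on low counts, edgeR called 1 in the late phase of Cav1-null.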

How the results depend on the processing

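Of 160 member and comparison pairs, 34 were called. Over 6 other fits these gave 180 values still past the threshold in the same direction and 24 no longer past it, 38 values of the other pairs passed, and none of the 960 values reversed a call. The number of members called moved as follows, and the cause was not tested. With library sizes alone it went from 5 to 8 for early AKR/J, while calls over all genes went from 5758 to 4802 of 19935. For AKR/J on d12 it went from 3 to 7, with 5529 and 4515 of 19320 genes. The median of all genes in the early AKR/J interaction went from 0.03 to 0.58. In 1 model of all 27 libraries 8 members were called for early AKR/J and 7 for AKR/J on d12, with 9568 and 10960 of 23307 genes. That model called 1 for late AKR/J (2366 genes), and 1 and 0 for early and late Cav1-null (3056 and 829). For Cav1-null on d15 it called 6 (8185 genes), against 9 in the main fit. DESeq2 gave 4 in the early phase of C57BL/6J (4893 of 19154 genes) and 6 for AKR/J on d12 (6802 of 19320). It gave 1 each for AKR/J on d17 (1330 of 20207 genes) and Cav1-null on d12 (2044 of 19475). Both Cav1-null interactions also had 1 (517 of 21191 genes early, 1436 of 21431 late). Without a filter on low counts there were 6 for AKR/J on d12 (6501 of 35765 genes). There was 1 each for AKR/J on d17 (905 of 36111 genes) and the late Cav1-null interaction (1010 of 38662). With the replicate block there was 1 for late AKR/J (3268 of 19989 genes) and 0 for both phases of C57BL/6J (0 of 19154 genes early, 2359 of 19888 late). Those C57BL/6J phases did not meet the rule for pairing (r = -0.23, 0.05 and -0.17 early, 0.15, 0.1 and 0 late). That does not show that their libraries are unpaired. Elsewhere the block moved the count by no more than 1.5 times.

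Leaving out each replicate in turn, members called ranged from 1 to 6, 1 to 3, 0 to 6, 0 to 3, 1 to 4 and 2 to 4 for the early and late phase of each strain, AKR/J first and Cav1-null last. They ranged from 0 to 6, 3 to 7 and 0 to 6 for AKR/J on d12, d15 and d17, and from 0 to 1, 9 to 9 and 0 to 4 for Cav1-null. For the early and late interactions they ranged from 0 to 1 and 0 to 0 in AKR/J, and from 0 to 2 and 0 to 5 in Cav1-null. Calls over all genes moved with them, from 0 to 5958 in early C57BL/6J, 25 to 8009 for AKR/J on d12 and 0 to 5792 in the late Cav1-null interaction. On junction reads, 7 called pairs kept their call, 8 lost it and 2 changed sign, and 4 others gained a call. Both sign changes, and 3 of the losses, are of Tuba1b, of whose 6 listed junctions 5 end in the Tuba1a locus (at most 24 reads each), so they are no separate measure of Tuba1b: it changed sign in the early phase of C57BL/6J (0.68, edgeR adjusted p = 0.126) and Cav1-null (0.05, adjusted p = 0.934). Of 12 sites with alternative junctions in member genes, 0 passed the filters. With 3 libraries a group and unknown sharing of litters, differences that missed the threshold are not shown to be absent.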

Other observations

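In the splice table, 2 junctions leave the first exon of Map2, of which the shorter enters an additional leader exon and the longer skips it; this comparison was chosen after its values were seen. The share of their reads that entered the additional exon averaged 16.6%, 21.97% and 26.9% in AKR/J on d12, d15 and d17 (n = 3, 3 and 2 libraries with reads on both). It averaged 16.7%, 19.7% and 19.7% in C57BL/6J (n = 3 each) and 16.4%, 18.4% and 21.6% in Cav1-null (n = 3, 2 and 3). The shares of a group spread by SDs of 0.757% to 6.09%, with 48 to 515 reads behind each library's share, and no test was made.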
